A study of Homo sapiens with 18 samples.

Results

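The RNA sites of 2 forms of MYC, the wild-type protein and a mutant named 3A, were compared peak by peak. All 103 peaks of the 3A list and all 2149 peaks of the wild-type list entered the comparison, 2252 of the 2340 peaks in the 3 lists at hand; the third list, of 88 peaks for a mutant named 7A, was used for overlap only. A 3A peak was placed on a wild-type peak where they shared at least 1 bp on the same chromosome and strand. Sites were mapped by eCLIP, in which ultraviolet light joins proteins to the RNA they touch in living cells, the protein is pulled down with an antibody, here against the FLAG tag, and the attached RNA fragments are sequenced. The host line, U2OS, derives from a human bone tumour; its MYC gene had been knocked out and a Tet-On, FLAG-tagged MYC put back. Every group used here shared the knockout, the tag, 24 h with 1 µg/mL doxycycline to switch the transgene on, and light of 254 nm at 400 mJ/cm2. Per allele with doxycycline there were 2 precipitated libraries and 1 input library, of 18 libraries in the whole series. The labels do not give the residues that 3A changes, nor whether each line is 1 clone.

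Each allele came as 1 list of called peaks without values per library, so there is no spread between replicates, no test between alleles and no p-value. Sequencing depth is unknown. No list from uninduced cells was analysed here, so the background without the tagged protein was not measured. Each peak carries a fold enrichment and a −log10 q, both given by the authors' peak caller, and they serve here only to rank peaks inside 1 list. Intervals on shares are 95% Wilson intervals and cover counting error over peaks only; peaks of 1 gene are not independent of each other. A list can be short because of the protein, because little RNA was precipitated or because few reads were sequenced, and from these lists the 3 cannot be told apart.

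MYC is best known as a transcription factor that pairs with MAX and binds the E-box CACGTG in the promoters of genes for growth, ribosomes, translation and glycolysis. Its contact with RNA is less well described. An eCLIP peak at the 5′ end of a gene lies on newly made or mature transcripts of that gene, while a peak deep in a gene with introns can lie on an exon or an intron, which the gene table used here does not separate. Many peaks of both lists sit at transcript starts: 46 of the 97 3A peaks inside genes have their summit no more than 500 bp from it.

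The stretches below are the first bases of genes where both proteins had a peak over the start, chosen because they show where the shared 3A peaks begin. Each runs from 40 bases before the RefSeq start to the thirtieth base of the transcript, 5′ to 3′ on the gene's strand, from RefSeq's GRCh38.p14 table, and capitals mark bases inside the 3A peak. NDUFB8, a subunit of respiratory complex I, is at chr10:100529842-100529911 on the minus strand. BTF3, a chaperone of nascent proteins at the ribosome, is at chr5:73498402-73498471 on the plus strand. SRSF1, a splicing factor, is at chr17:58007217-58007286 on the minus strand, and TCP1, a subunit of the cytosolic chaperonin, at chr6:159789573-159789642 on the minus strand. PGK1, a glycolytic kinase, is at chrX:78104208-78104277 on the plus strand.
NDUFB8: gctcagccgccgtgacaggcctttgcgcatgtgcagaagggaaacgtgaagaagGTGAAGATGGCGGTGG
BTF3: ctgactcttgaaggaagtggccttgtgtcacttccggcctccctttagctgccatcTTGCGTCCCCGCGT
SRSF1: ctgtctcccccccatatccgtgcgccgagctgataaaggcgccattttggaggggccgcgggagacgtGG
TCP1: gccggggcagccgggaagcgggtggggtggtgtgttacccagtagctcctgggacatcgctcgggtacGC
PGK1: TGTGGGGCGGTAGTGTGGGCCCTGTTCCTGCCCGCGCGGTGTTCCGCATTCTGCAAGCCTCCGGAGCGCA
In the first 4 genes the 3A peak opens between 14 and 28 bp downstream of the start, so all bases before the start are in lower case. The 3A peaks of EIF5A, PTMA, H2BC12 and H4C5, whose stretches are not printed, open later, at 29, 38, 40 and 47 bp. For genes with several listed starts the most upstream was used. The PGK1 stretch is in capitals throughout: its 3A peak opens at position -420 relative to the RefSeq start, and the wild-type peak there opens at -433. The PGK1 promoter is also a common part of expression vectors; whether these cells carry such a vector is not given in the sources used here, and reads of a vector and of the gene cannot be told apart in the lists. Without MYC and the PGK1 start, 78 of 100 3A peaks lay on a wild-type peak.

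Of the 103 3A peaks, 81 lay on a wild-type peak, a share of 78.6% (69.8 to 85.5). Seen from the other side, 76 of the 2149 wild-type peaks were met by a 3A peak, a share of 3.54% (2.83 to 4.40), which is the background for every gene group below. In bases, 17033 bp were in both lists, 65.6% of the 25965 bp covered by 3A peaks and 3.95% of the 430931 bp covered by wild-type peaks. Assigned to genes by their summits, 3A peaks fell in 76 host genes, and 64 of these also held a wild-type summit (84.2% of 3A hosts and 4.49% of the 1426 wild-type hosts). The wild-type peaks that were not met numbered 2073, of which 2004 lay in no gene with a 3A summit and 69 lay in a gene that had one elsewhere.

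Where the lists met, they met closely. Of the 81 overlapping pairs, 71 joined 1 peak to 1 peak. Another 5 wild-type peaks, in RPL8, ENO1, H2AC21, H2AC7 and CFL1, each carried 2 3A peaks. The 3A peak lay wholly inside the wild-type peak in 60 pairs and was the narrower in 66, with a median width of 172 bp against 243 bp and a median width ratio of 0.814 (quartiles 0.582 to 0.949). The 5 wild-type peaks that carried 2 count 2 times in these medians. Over the whole lists the median widths were 171 bp for 3A and 165 bp for wild type, so 3A peaks were not narrower as a list. The summits were a median of 5 bp apart (quartiles 1 to 29 bp), and 45 pairs had them within 10 bp. They fell on the same base in 13 pairs, among them peaks in RMRP, the RNA of the RNase MRP complex, in H1-2, a linker histone, in ACTB, cytoplasmic beta actin, in RPS2, a small-subunit ribosomal protein, and in PPA1, an inorganic pyrophosphatase.

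**Figure D1:**
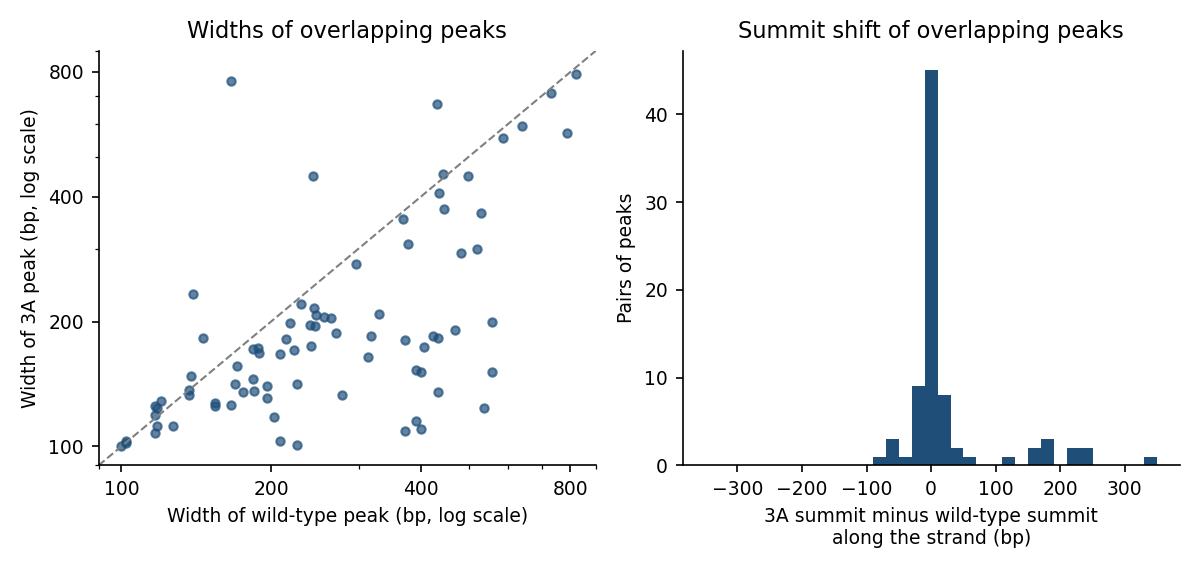
The 81 overlapping pairs of 3A and wild-type peaks. Left, width of the 3A peak against width of the wild-type peak, in bp on log scales, with equal widths on the dashed line; 66 points lie below the line. Right, number of pairs by the distance in bp from the wild-type to the 3A summit along the strand, with a narrow central column and a smaller group of 11 pairs beyond 100 bp, all to the right.

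The 11 pairs with summits over 100 bp apart all had the 3A summit downstream. In 5 of them the 3A peak was the second on a wild-type peak that carried 2, and 4 were in histone genes. The widest gap, 335 bp, was in CFL1, which encodes the actin-severing protein cofilin. There a wild-type peak of 557 bp held 3A peaks of 200 bp and 151 bp, 1 with its summit 1 bp from the wild-type summit and the other at the far end. HNRNPD, an mRNA-binding protein, and SNHG29, a snoRNA host gene, each had 1 3A peak, with summits 248 bp and 186 bp further along than in wild type.

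A 3A peak was wider than its wild-type peak in 12 pairs. TOM1, an endosomal sorting protein, gave the largest ratio, 4.57, from a 3A peak of 759 bp over a wild-type peak of 166 bp, and its other 3A peak spanned 450 bp against 243 bp. PIAS4, a SUMO ligase, had 670 bp against 432 bp, and ACTG1, cytoplasmic gamma actin, had 233 bp against 139 bp. By −log10 q in wild type the PIAS4 and ACTG1 sites were at ranks 1807 and 1728 of 2149, and the TOM1 sites at ranks 1094 and 763.

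The share of wild-type peaks met by 3A fell steeply down the wild-type list when it was ordered by −log10 q. Of the 10 strongest, 9 were met, and of the next 15, 8 were met. The share was 40% in ranks 26 to 50, 20% in ranks 51 to 100, 15% in ranks 101 to 200 and 6% in ranks 201 to 400. In ranks 801 to 2149 it was 0.371%, or 5 of 1349 peaks. The first 1074 peaks of the list held 73 of the 76 met peaks. As background, a −log10 q grows with the number of reads at a site as well as with its enrichment, so abundant RNAs can rank high by it at a low fold.

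By fold enrichment the order was much flatter. Of the 10 wild-type peaks of highest fold, 5 were met, but of the first 103 only 15 were met, against 38 of the first 103 by −log10 q. The first 1074 by fold had 42 met (3.91%) and the other 1075 had 34 (3.16%). The median rank of met peaks was 104 by −log10 q, against 1111 for peaks not met, but 938 against 1079 by fold enrichment. Met wild-type peaks were also wider, with a median of 234.5 bp against 162 bp. Among peaks over 400 bp wide 15.1% were met, and among those of 120 bp or less 2.09%. The wide peaks also had the higher median −log10 q, 31.6 against 14.4, and many of the met ones were in histone genes. Width was therefore not separated from rank or from the histone genes.

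**Figure D2:**
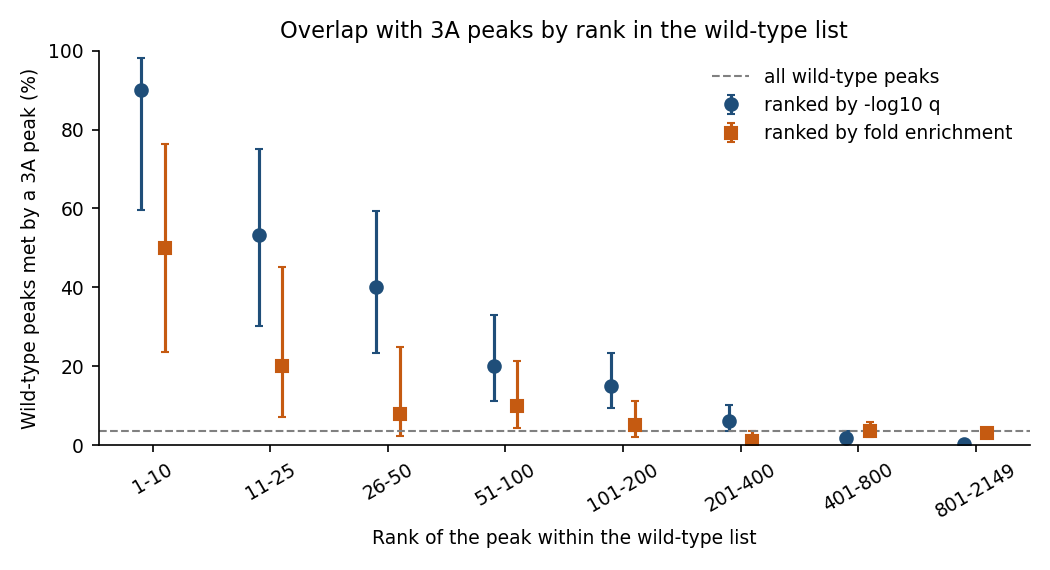
Percent of wild-type peaks met by a 3A peak (vertical axis) in 8 bands of rank within the wild-type list (horizontal axis), ranked by −log10 q (circles) or by fold enrichment (squares). Bars are 95% Wilson intervals and the dashed line is the 3.54% of all wild-type peaks; the circles fall from 90% in ranks 1 to 10 to 0.371% in the last band, while the squares start at 50% and change little after rank 200.

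The 9 met peaks among the 10 strongest of the wild-type list were 2 in MYC itself, the PGK1 start, and single peaks in RMRP, MTRNR2L1, SCARNA28, H1-4, ENO1 and RPL8. MYC reads in these cells can come from the transgene, whose mRNA is present wherever the protein is, and the transgene and the gene cannot be told apart. The 2 MYC peaks had the highest folds of both lists, 562.6 and 354.9 in wild type and 53.2 and 52.2 in 3A. Here and below, folds and −log10 q of the 2 lists are not on a common scale, so their difference is not a measured change. In the 3A list they held ranks 2 and 5 by −log10 q, with values of 361.8 and 222.5. MTRNR2L1 is a nuclear copy of mitochondrial ribosomal RNA, so its reads may belong to the mitochondrial transcript.

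The 1 peak of those 10 without a 3A peak was in RPPH1, the RNA subunit of RNase P, which trims the 5′ ends of tRNA precursors. It held rank 4 by −log10 q, at 1188.9, with a fold of only 3.61. RMRP, its structural relative and the RNA of RNase MRP, held rank 5 with 1101.6 and was met. Its 3A peak had −log10 q of 166.9, rank 6 of that list, and the lowest fold there (1.35). Both are short, abundant RNAs whose peaks combine very high −log10 q with low fold.

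Of the 20 3A peaks of highest fold, 13 were on a wild-type peak. After MYC came a peak outside genes at chr1:6261628-6261729 on the plus strand, with a fold of 27.8, and another at chr12:130315532-130315631 on the minus strand, with 26.3. Both were 100 to 102 bp wide in either list and also had a 7A peak over them. NDUFB8 followed with 25.3 and DCLK2, a microtubule-associated kinase, with 19.2. PTMA, which encodes the nuclear protein prothymosin alpha, had 13.8, PPA1 13.6 and PHB2, a mitochondrial prohibitin, 11.8. All of these lay on wild-type peaks, and the lists differ too much in length for their ranks to be compared.

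Other strong wild-type peaks with no 3A peak in the same place included H2AC20, a histone H2A gene (rank 13, −log10 q 235.0), NCL, the nucleolar protein nucleolin (rank 23, 162.3), and RANBP1, a partner of the RAN GTPase in nuclear transport (rank 24, 157.4). The pseudogenes RPL4P4, TUBBP1 and RPS21P4, at ranks 15, 16 and 25, were not met either; their reads may derive from the parent genes. RPL37A, a large-subunit ribosomal protein, had 2 such peaks at ranks 29 and 30. Among the 10 highest folds, the unmet peaks included RPS21P4 (44.8), SPOCK3, a secreted proteoglycan (38.3), NME1, a nucleoside diphosphate kinase (37.1), and TFRC, the transferrin receptor (32.0). Of the first 103 wild-type peaks by −log10 q, 65 were not met, and 9 of these were in genes where 3A had a peak elsewhere.

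Among the gene groups with at least 10 wild-type peaks, histone genes had the highest share met. These short, intronless genes make the replication-dependent core and linker histones, and their mRNAs end in a stem-loop instead of a poly(A) tail. Wild type had 37 peaks in 32 of the 64 genes, and 13 peaks were met (35.1%, 21.8 to 51.2), against 3.54% of all wild-type peaks. The 3A list had 15 peaks in 13 histone genes, all on wild-type peaks. Within the 215 strongest wild-type peaks by −log10 q 12 of 18 histone peaks were met (66.7%, 43.7 to 83.7) against 40 of 197 others (20.3%, 15.3 to 26.5).

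By class, 3A peaks were in both linker histone genes with a wild-type peak, H1-2 and H1-4, in 6 of 10 such H2A genes, 2 of 9 H2B genes, 1 of 4 H3 genes and 2 of 7 H4 genes. H1-2 had a 3A peak of 713 bp on a wild-type peak of 730 bp, at chr6:26055703-26056415 on the minus strand, with both summits 129 bp from the gene's start. H1-4 had 569 bp on 786 bp. H2BC12 showed the opposite shape, a 3A peak of 124 bp on a wild-type peak of 537 bp with the same summit. The best-ranked histone in the 3A list was H4C1, at rank 15 with −log10 q of 88.4, while in wild type 10 histone peaks ranked above it. Copies of a histone class are nearly identical in sequence, so a peak may have been placed on the wrong copy; H2AC20, not met, and H2AC21, met, lie next to each other on opposite strands of chromosome 1.

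Glycolytic enzymes, which turn glucose into pyruvate and lactate, had 9 of 48 wild-type peaks met (18.8%, 10.2 to 31.9). Within the 215 strongest wild-type peaks by −log10 q, 7 of 16 glycolysis peaks were met (43.8%, 23.1 to 66.8). That interval includes the share of all 215, 52 met or 24.2%. The 11 3A peaks fell in 5 genes: 6 in ENO1 (enolase), 2 in PKM (pyruvate kinase), and 1 each in GAPDH, LDHB (lactate dehydrogenase B) and at the PGK1 start. The wild-type summit at the PGK1 start lies 154 bp upstream of the gene, so that peak is counted outside the group, and the doubt about vector reads at this site applies to the 3A peak counted here. LDHB held rank 5 by fold in the wild-type list, at 40.8, and rank 11 in the 3A list, at 14.7. ALDOA, TPI1, GPI, LDHA and HK1 had 5, 2, 3, 3 and 2 wild-type peaks and no 3A peak, and none of these 15 peaks ranked above 178 by −log10 q.

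Genes of the cytoskeleton had 6 of 31 wild-type peaks met (19.4%, 9.19 to 36.3). Within the 215 strongest wild-type peaks 2 of 9 were met (22.2%, 6.32 to 54.7), close to the 24.2% of all 215. The 3A peaks lay in ACTB and ACTG1 with 2 each, in CFL1 with 2, and in PFN1 (profilin, which feeds actin monomers to growing filaments) with 1; MYH9, non-muscle myosin, had 1 away from any wild-type peak. No tubulin gene had a 3A peak. TUBA1B had 4 wild-type peaks, the strongest at rank 45. In ranks 26 to 50 of the wild-type list 10 of 25 peaks were met, so an unmet peak there is common.

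The translation machinery, a classical set of MYC target genes, lay close to the background. Large-subunit ribosomal protein genes had 5 of 72 wild-type peaks met (6.94%, 3.00 to 15.2), all in RPL8, RPLP1 and RPL27A. Small-subunit genes had 2 of 42 met (4.76%, 1.32 to 15.8), in RPS2 and RPS20. The 3A peaks of RPLP1 and RPS20 were among the 12 strongest of the 3A list, with −log10 q of 102.3 and 97.4. Elongation factors with RACK1 had 3 of 32 met (9.38%, 3.24 to 24.2): 2 in EEF2, which moves the ribosome along the mRNA, and 1 in EIF5A, which relieves stalled ribosomes. EEF1A2, with 8 wild-type peaks, and RACK1, with 7, had none, too few peaks to differ from the 3.54% of all wild-type peaks.

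Chaperones had 3 of 50 met (6%, 2.06 to 16.2), 2 in HSP90AB1, the constitutive cytosolic HSP90, and 1 in TCP1. HSPA8, the constitutive HSP70, had 7 wild-type peaks and none met, too few peaks to differ from the background. The splicing factors of the SR and hnRNP families had 3 of 39 met (7.69%, 2.65 to 20.3), in SRSF1, SRSF9 and HNRNPD. SNHG29 was the single met peak of 12 in snoRNA host genes, and PSMA7 the single met peak of 18 in proteasome subunits. The intervals of all these groups include the background of 3.54%.

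In 6 groups with at least 10 wild-type peaks none was met: translation initiation factors (0 of 29), lipid synthesis and uptake (0 of 29), nucleotide and polyamine synthesis (0 of 27), oxidative phosphorylation (0 of 44), the MCM replicative helicase (0 of 10) and ribosome biogenesis (0 of 39). The upper Wilson limits of the 6 groups, from 8.03% for oxidative phosphorylation to 27.8% for the MCM helicase, all lie above the background of 3.54%, so no single group is distinguishable from it. Put together after their counts were seen, they gave 0 of 178 peaks and 0 of 20 within the 215 strongest, a description only. Among their genes, FASN, the fatty acid synthase, had 11 wild-type peaks, SCD, which desaturates fatty acids, had 8, EIF4G1, the scaffold of the cap-binding complex, had 8, and EIF3B, an EIF3 subunit, had 7. NCL, described above, was the best-ranked peak of the ribosome biogenesis group.

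**Figure D3:**
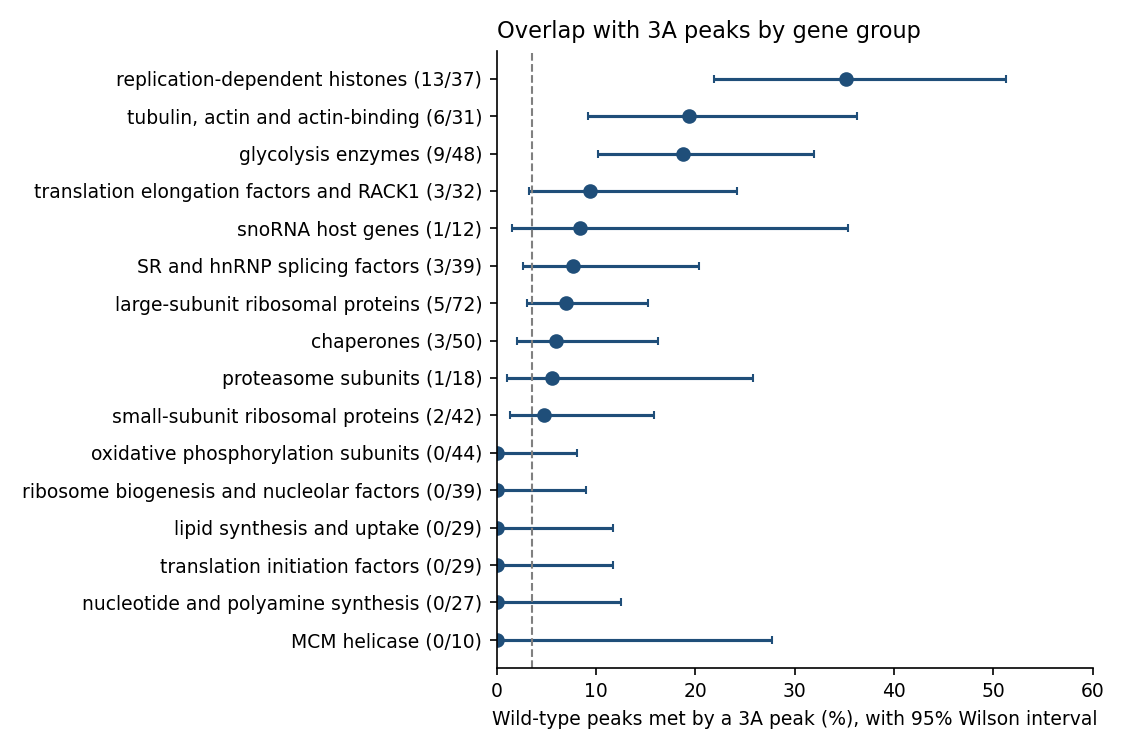
Percent of wild-type peaks met by a 3A peak in each gene group with at least 10 wild-type peaks, with 95% Wilson intervals; numbers in brackets are peaks met and wild-type peaks in the group. The dashed line is the 3.54% of all wild-type peaks. The intervals of the top 3 groups, histones, cytoskeleton and glycolysis, lie above that line. Rank within the wild-type list is not taken into account.

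Small non-coding RNAs had 3 of 8 wild-type peaks met, against 65 of 1870 in coding genes, 4 of 161 in pseudogenes and 1 of 82 in long non-coding RNAs. Beside RMRP these were SCARNA28, a small Cajal body RNA, with −log10 q of 385.9 in wild type (rank 7) and 90.9 in 3A (rank 14), and a peak assigned to MIR4449. The peaks at MIR4449 spanned chr4:52712694-52712812 in 3A and chr4:52712697-52712813 in wild type, on the plus strand, with the same summit base. That position is also inside DANCR, a long non-coding RNA gene from chr4:52712394-52720697, and the peaks run past the end of the 66-base hairpin, so either RNA may carry them. MIR4449 held rank 8 in the 3A list, with −log10 q of 136.5, and rank 26 in wild type.

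Within single genes, 3A kept some wild-type peaks and lacked others. In the 27 host genes with at least 2 wild-type peaks and a 3A peak, 38 of 105 wild-type peaks were met. The gene's peak of highest −log10 q was met in 19 of these genes and its peak of highest fold in 14. In MYC, RPL8 and TOM1 every wild-type peak was met, and in PGK1 and ATP5F1B none was, so those genes could not vary. How often a peak picked at random in each gene would be met was not worked out. ENO1, of 17.7 kb, had 9 wild-type peaks, and the 5 met had their summits between 11.5 and 17.4 kb from the start. Its start peak, with a summit at 83 bp and −log10 q of 90.9, was not met, though it ranked above 3 of the 5 met peaks; neither were those at 3.83, 6.79 and 15.4 kb.

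In HSP90AB1 the met peaks were 2 of 8, with summits 4367 bp and 7523 bp from the start. The peak at 5635 bp, with −log10 q of 151.5 in wild type, had no 3A peak, while the weaker one at 4367 bp (99.7) had. PKM, with the most wild-type peaks of any gene with a 3A peak, 12, was met only at summits 31.1 and 32.1 kb from the start of a gene of 32.6 kb; its strongest wild-type peak, at 24.4 kb, was not met. RPL8 was met in all 3 peaks. LDHB was met in 1 of 6 peaks, GAPDH in 1 of 4 and EEF2 in 2 of 9.

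**Figure D4:**
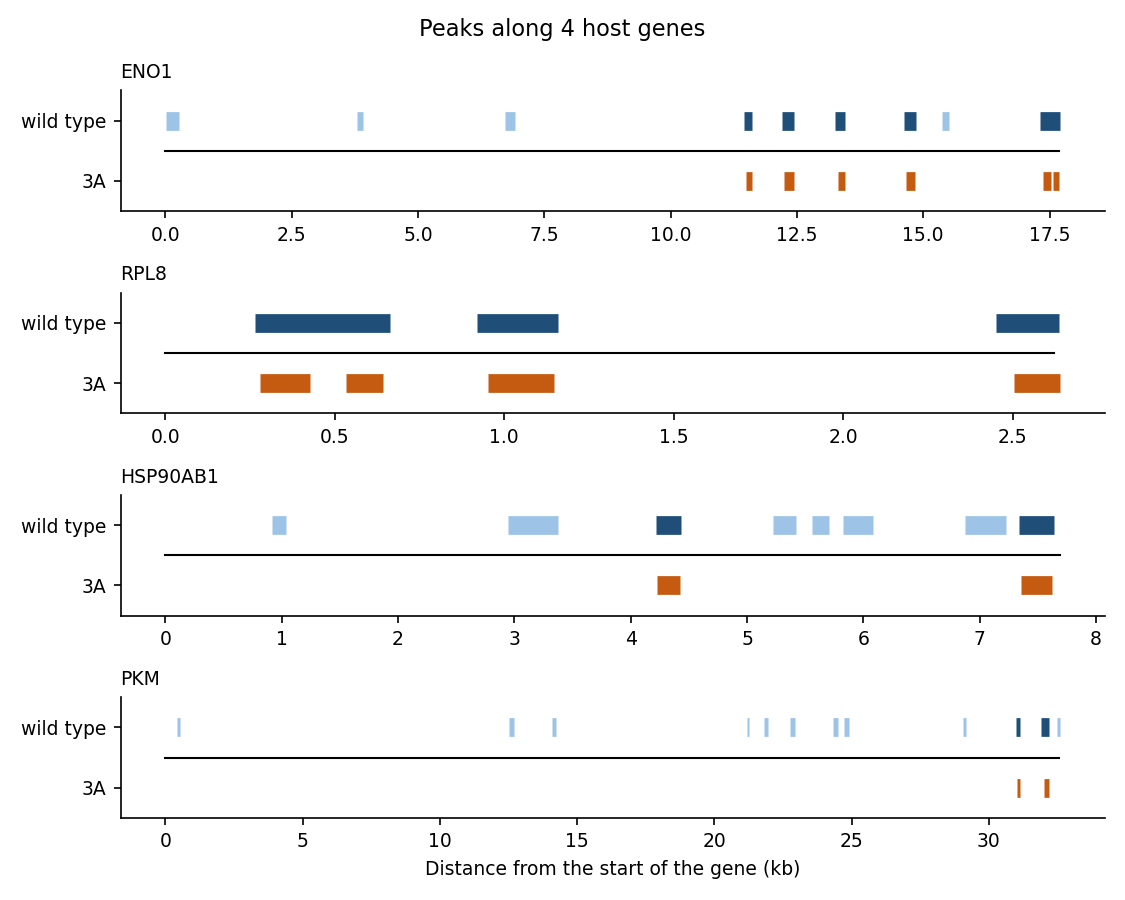
Peaks along ENO1, RPL8, HSP90AB1 and PKM, by distance in kb from the gene's start along the strand. Bars above the line are wild-type peaks, dark where a 3A peak overlaps and pale where none does, and bars below are 3A peaks; 3A peaks fall only under dark bars, in the distal portion of ENO1 and PKM and along the whole of RPL8.

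There was no single rule of position within a gene. In 14 of these genes wild type had peaks both within 500 bp of the start and further in. In 7 only a start peak was met (PFN1, PSMA7, PTMA, RPS2, SNRNP200, SRSF1 and SRSF9), in 5 only inner peaks (CFL1, ENO1, LDHB, PKM and RPL27A), in RPL8 both and in ATP5F1B neither. Over the 27 genes, 8 of 14 start peaks and 30 of 91 inner peaks were met. The start here is the outer end of the host gene. The met EIF5A peak, 687 bp from that end, therefore counts as inner, although its summit is 58 bp from a listed start used below.

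The share of summits within 500 bp of the gene's start was 47.4% for 3A (46 of 97, 37.8 to 57.3) and 44.7% for wild type (42.6 to 46.8). It was 53.2% for 3A peaks on wild-type peaks and 22.2% (4 of 18) for those off them. Histone genes, short enough for most of their length to lie near the start, weigh on these shares. In hosts of at least 1 kb the share was 35.1% for 3A (27 of 77, 25.3 to 46.2), 41.1% for met wild-type peaks (23 of 56) and 41.2% for unmet ones (793 of 1926). Where the host's strand was known, 67 of 69 3A peaks and 1554 of 1615 wild-type peaks ran in the sense of the gene, the 3A exceptions being in PRMT2, an arginine methyltransferase, and RUNX1, a transcription factor of blood and bone.

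Placement at starts was compared only in genes where the peaks of both proteins overlapped the same window, so likeness is partly built in. In the 9 genes where both overlapped a RefSeq window of 250 bases before to 50 after the start (PGK1, PTMA, H2BC12, NDUFB8, EIF5A, H4C5, BTF3, SRSF1 and TCP1), the 3A summit was a median of 85 bp and the wild-type summit a median of 86 bp from the start. For EIF5A and H2BC12, which have several listed starts, the most upstream was used. The 3A peaks began a median of 28 bp after the start and the wild-type peaks 16 bp. Of the 9 3A peaks only that of PGK1 began before the start used. Of the wild-type peaks 3 did, those of PGK1, EIF5A (at -26) and TCP1 (at -11). NDUFB8 had both summits at 85 bp and BTF3 had them at 85 and 86 bp.

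The E-box CACGTG, searched on both strands, was in 0 of the 12 start windows of these 9 genes (upper Wilson limit 24.2%), in 55 of the 383 windows met by wild type and not by 3A (14.4%) and in 7.26% of all 35116 windows. TATAAA, the TATA box, was in 2 of the 12, in 7.57% of the 383 and in 11.5% of all windows. CCAAT, the motif of NF-Y, was in 6 of the 12, in 36.6% of the 383 and in 34.6% of all. Several windows overlap, 3 of the 12 being EIF5A's, and a match is a string of letters in this stretch of DNA and shows no binding.

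The 22 3A peaks away from wild-type peaks were spread over 16 genes and 4 sites outside genes, and none was a near miss. None lay within 100 bp of a wild-type peak and 1 lay within 1000 bp, in MT2A at 592 bp. The median distance was 1.03e+06 bp. They were not the weak end of the 3A list: their median rank was 38 by −log10 q and 33 by fold, against 56 and 57 for the 81 on wild-type peaks. Of the 20 strongest 3A peaks by −log10 q, 16 were on a wild-type peak, and the other 4 included the site on chromosome 12 described next, LGALS1 and MT2A. In 4 cases, MT2A, AP2M1 and ATP5F1B among them, the gene had a wild-type peak elsewhere, and in 14 it had none.

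The strongest 3A peak of all was among them. It lay outside genes at chr12:57754989-57755094 on the minus strand, 106 bp wide, with −log10 q of 1381.2 and a fold of 11.1, ahead of MYC. No wild-type or 7A peak overlapped it, and the nearest wild-type peak was 1066813 bp away. It ends 9 bp from MARCHF9, a ubiquitin ligase gene on the opposite strand. A peak found in 1 list alone and without values per library has no replicate check here.

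The 22 split evenly by the other mutant, 11 with a 7A peak over them (50%, 30.7 to 69.3) and 11 without. Over the whole 3A list 33 of 103 peaks were met by 7A (32%), and over the 81 on wild-type peaks 22 were (27.2%, 18.7 to 37.7). The intervals of the 22 and the 81 overlap. Wild-type peaks were met by 7A in 30 of 2149 cases (1.4%). The 11 with a 7A peak were broad, with a median width of 486 bp (100 to 1942), and none was at the start of its assigned gene. They included 2 adjoining peaks in AUTS2, a neurodevelopmental gene (folds 16.6 and 17.7), 2 in TBC1D22A, a TBC-domain gene, 2 neighbouring peaks outside genes on chromosome 2, and single peaks in ANXA2, a membrane-binding annexin, IGF2, a growth factor, HRK, a pro-apoptotic protein, and outside genes on chromosome 9. Adjoining peaks in 1 gene are not separate sites, so the 11 peaks stand for fewer sites. Genes over 100 kb hosted 7 of the 22, against 1 of the 81 on wild-type peaks.

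The 11 without a 7A peak were narrow, with a median width of 106 bp (100 to 157), and 4 of them lay at the start of their assigned gene. LGALS1, which encodes galectin-1, had its summit 90 bp from the start with −log10 q of 69.9. MT2A, a metal-binding metallothionein, had its summit at 91 bp with 69.3; its second 3A peak, near the other end of the gene, lay on both a wild-type and a 7A peak. AP2M1, a subunit of the clathrin adaptor, had its summit at 106 bp and rank 7 by fold in the 3A list, at 18.7. GJD3-AS1, a long non-coding RNA, had its summit at 319 bp. The rest were the chromosome 12 site, CYKILR, a long non-coding RNA, PRMT2, MYH9, PALM, a membrane protein, ATP5F1B, the beta subunit of ATP synthase, and RUNX1. The ATP5F1B peak, at the far end of its assigned gene, also covers the start of BAZ2A, a chromatin-remodelling subunit on the same strand, and its summit lies inside both genes.

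**Figure D5:**
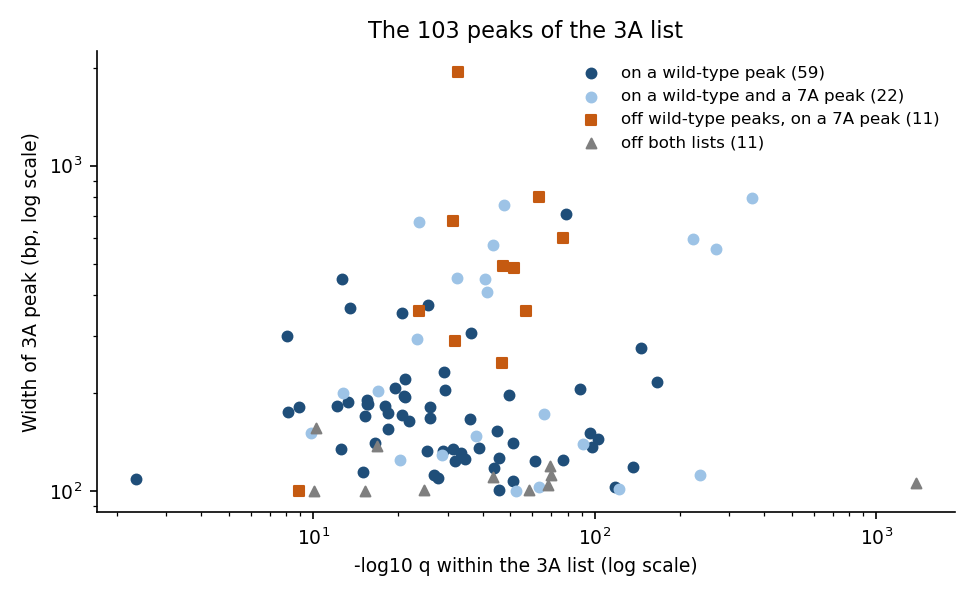
All 103 peaks of the 3A list, by −log10 q within that list (horizontal, log scale) and width in bp (vertical, log scale), marked by overlap with the other 2 lists. Peaks off wild-type peaks divide into 11 that meet a 7A peak, mostly wide (squares, median 486 bp), and 11 that meet neither list, all of 157 bp or less (triangles), among them the point of highest −log10 q, 1381.2.

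LGALS1 was also the single 3A gene on a list of mesenchymal and osteoblast genes, looked for as a check of the cell line; VIM, which encodes vimentin, had the one wild-type peak of that list. Of 20 genes typical of other tissues, such as liver, blood and muscle, 1 had a wild-type peak (NEFL, a neurofilament gene) and none had a 3A peak. Among 27 matrix and adhesion genes the one wild-type peak was in LAMC1, a laminin chain. RNA levels were not measured by these lists, so a missing peak says nothing on whether a gene was expressed.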

How the data were processed

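Analysed were the deposited narrowPeak lists of the doxycycline-treated cells, 1 per allele. MACS2, cutadapt and BWA were used with hg38, per the submitters' processing notes; their versions and settings, the control and any pooling of replicates: not given in the sources used here. Each deposited fold enrichment is a ratio over a control that is not named, and the authors gave each peak a −log10 q. Both were used only to rank peaks within a list. Starts were turned to 1-based positions. The host gene was the shortest gene of RefSeq's GRCh38.p14 table that holds the summit, and its start was its lower end for plus-strand peaks and its upper end for minus-strand peaks. Overlap code was tested on simulated data. No statistical test was run. Depth per sample is unknown. Named genes were members of 20 gene lists with a 3A peak, hosts of the 20 top peaks of either list, hosts of several 3A peaks, hosts of 3A peaks off wild-type peaks and the 10 hosts with most wild-type peaks; genes outside this rule were chosen after their values were seen. Some items that the rule selects are not reported here. Members and lists were chosen with earlier results of these data known. The software was pandas 2.3.3, NumPy 2.4.6, SciPy 1.17.1 and matplotlib 3.10.9 under Python 3.11.15.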

Additional observations from a re-analysis of the deposited data

How the results depend on the processing

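Across 21 results and 86 alternative values, 73 stayed within the limits set for them and 13 moved. Whether a direction reversed was not scored. With each list kept from its median fold enrichment up, 32 of 52 3A peaks met 32 of 1076 wild-type peaks. With the wild-type list limited to its 103 peaks of highest −log10 q, 40 3A peaks overlapped 38 wild-type peaks and 63 lay away from them. Both alternatives hold fewer peaks by construction. Ranked by fold enrichment, 15 of the first 103 wild-type peaks were met, against 38 by −log10 q; the cause was not tested. The share of summits near gene starts in wild type, 44.7%, became 35.5% with a window of 250 bp, 51.5% with 1000 bp and 41.2% in hosts of at least 1 kb, and the 3A share of 47.4% became 35.1% in those hosts, which leave out most histone genes. The restriction to hosts of at least 1 kb and a count without histone genes were chosen after seeing the data. No paired analysis was possible because there is 1 peak list per allele, without values per replicate, and no replicate could be left out for the same reason. Depth, the control used for calling and the lists without doxycycline bound every comparison of list lengths.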
